A study of Mus musculus with 78 samples.

Results

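The 9 genes described here are known from mouse muscle for responding when a fibre loses its nerve, and they were followed across the ages, sexes and diets of a soleus RNA-sequencing study. They were picked out by mouse symbol, from a list drawn up with earlier results of these data known: Myog, Myod1, Runx1, Hdac4, Hdac9, Dach2, Gadd45a, Ncam1 and Myh3, which are 9 of 36904 gene IDs in the deposited table. All 9 passed the filter on low counts and stand among the 18218 genes tested. The soleus is a postural calf muscle, and all mice were C57Bl/6. RNA was bulk RNA of whole muscle, so fewer cells of a type and less RNA per cell cannot be told apart.

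Batch 1 held mice of 6 months (4 females, 6 males), 12 months (6 females, 6 males), 20 months (6 females, 9 males) and 28 months (6 females, 5 males), all on control feed. Batch 2 held 28-month mice only: 12 males whose diet was labelled with 2% calcium alpha-ketoglutarate (CaAKG), 10 control males and 7 control females. The age of 28 months is read from the label M28. The 6- and 12-month mice came from Invivos in Singapore and the 20-month mice from the Jackson laboratory in the USA, so age and supplier cannot be told apart in the contrast of 20 with 6 months. A separate trial cohort entered at 17 months, and its supplier is not given in the sources used here, so a difference of supplier in the contrasts of 28 months was not tested either.

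Muscle fibres hold acetylcholine receptors at the synapse and keep them off the rest of the membrane while the nerve keeps the fibre active. After denervation, class II histone deacetylases such as Hdac4 repress the inhibitor Dach2, the bHLH factor Myog rises, and Myog drives receptor subunits and ubiquitin ligases. Dach2 and Hdac9 are known in mouse for falling after denervation, while the other genes of the list are known for rising.

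Libraries held 19460383 to 81637543 counts (median 35209193). Levels are given as CPM, the count scaled by the library's total, here with trimmed-mean (TMM) factors. The summed level of 6 slow-fibre markers ranged from 5385 to 44299 CPM and exceeded that of 6 fast-fibre markers at the median in every group. In 28-month females of batch 1 the fast-fibre sum reached 40447 CPM, where the highest slow-fibre sum was 36731 CPM. The fast-fibre sum was thus the higher one in at least 1 library. The part of fibre make-up in the members' levels was not tested. In 5 libraries the X- and Y-linked transcripts went against the sex label: 12-month female replicates 1 and 4, 6-month female replicate 3, 12-month male replicate 3 and 6-month male replicate 3. Skin keratinocyte markers summed to more than 100 CPM in 28-month female replicate 8, 28-month male replicate 4, 12-month female replicate 5 and CaAKG replicates 8 and 10. Neutrophil markers did so in 28-month female replicates 10 and 12 and CaAKG replicates 6 and 7. Calls of members that changed without these libraries are given with both values.

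Per length, Gadd45a had the highest median over 77 replicates, 13.6 CPM per kb of transcript, followed by Myh3 at 8.70 and Hdac4 at 5.63 CPM per kb. Dach2, Myod1 and Myog had medians of 4.74, 4.51 and 4.07 CPM per kb, Ncam1 and Hdac9 of 2.33 and 2.11 CPM per kb, and Runx1 was lowest at 1.09 CPM per kb. Runx1 was also the single member with a library at 0 counts, 12-month female replicate 1. Changes with age followed transcript length across all genes, so lengths are given here. Myog, Myod1 and Gadd45a have annotated transcripts of 1.495, 1.86 and 1.22 kb, while the other 6 members run from 5.16 kb for Dach2 to 8.10 kb for Hdac4.

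Of the promoters in RefSeq (GRCm38.p6), 7 of the 9 members matched by symbol, and Myod1 and Ncam1 did not. The stretches before the starts of Myog, Gadd45a and Myh3 are shown as examples, since Gadd45a and Myh3 rose at 28 months in both sexes and Myog is itself a factor that binds E-boxes. Capitals mark E-boxes (CANNTG, the core bound by Myog and Myod1) and the RUNX core TGTGGT, searched on both strands. Bases that the GENCODE M21 annotation places within the gene are not shown.
Myog, chr1:134289754-134289988, plus strand: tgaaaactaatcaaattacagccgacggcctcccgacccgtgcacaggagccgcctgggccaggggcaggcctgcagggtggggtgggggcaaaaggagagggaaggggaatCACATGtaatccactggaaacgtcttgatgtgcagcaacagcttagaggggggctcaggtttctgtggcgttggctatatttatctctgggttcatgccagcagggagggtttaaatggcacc
Gadd45a, chr6:67037458-67037657, minus strand: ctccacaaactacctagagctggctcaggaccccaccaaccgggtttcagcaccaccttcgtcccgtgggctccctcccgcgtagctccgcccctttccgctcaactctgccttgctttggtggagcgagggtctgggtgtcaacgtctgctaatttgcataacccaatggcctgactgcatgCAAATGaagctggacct
Myh3, chr11:67078050-67078299, plus strand: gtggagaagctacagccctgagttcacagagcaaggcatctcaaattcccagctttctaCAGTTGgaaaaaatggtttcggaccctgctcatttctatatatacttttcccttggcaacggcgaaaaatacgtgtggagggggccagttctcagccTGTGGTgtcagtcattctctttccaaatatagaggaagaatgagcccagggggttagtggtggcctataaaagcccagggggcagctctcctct
An E-box stood in 66.2% and the RUNX core in 14.0% of the 250-base stretches before 32851 annotated starts, so an E-box is common. A second E-box of Myog, CAGTTG, lay 12 to 7 bases before the RefSeq start. Hdac4 also rose at 28 months in both sexes but is not shown, and its 250-base stretch held 0 E-boxes and 0 RUNX cores. A match is a description of letters and not a binding site.

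At 28 months, 5 of the 9 genes rose in females of batch 1 relative to 6 months, where 9.91% of all genes rose and 9.04% fell. These were Gadd45a, Runx1, Myh3, Ncam1 and Hdac4, and 0 members fell. In males of batch 1, 4 rose (Gadd45a, Myh3, Hdac4 and Hdac9) and 0 fell, where 6.76% of all genes rose and 9.38% fell. Both counts depended on single libraries. Without 6-month female replicate 3, which went against its sex label, 1 member passed in females. Without 28-month male replicate 15, 1 member passed in males. The median log2 fold change over the 9 members was 0.71 in females and 0.68 in males, against 0.09 and 0.02 over all genes tested. Runx1, Myh3, Ncam1, Hdac4 and Hdac9 have transcripts over 5 kb. Of genes in that class 22.9% rose in females and 18.6% in males, with median log2 fold changes of 0.36 and 0.28. Tests are edgeR quasi-likelihood tests of 1 fit over all groups, with p adjusted by Benjamini-Hochberg over 18218 genes and a threshold of 0.05. Members whose difference passed are said to have risen or fallen, and gene positions are those of GRCm38.

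Gadd45a, a growth-arrest and DNA-damage gene that is induced strongly in denervated mouse muscle (ENSMUSG00000036390, chromosome 6, 67035096 to 67037457, minus strand), gave the largest change. It ranged from 23.3 to 224 CPM (median 52.4) in 28-month females of batch 1, against 12.6, 16.7, 19.7 and 12.6 CPM in 6-month females. Every 28-month female of batch 1 lay above every 6-month female. The log2 fold change was 2.44 (SE 0.68, adjusted p = 0.0085), and 3.17 without the 3 libraries with skin or marrow markers. All 14 neutrophil markers rose in the same contrast, with sums of 3.22 to 1852 CPM in 28-month females of batch 1. In males the 5 libraries of 28 months held 13.3, 11.2, 41.5, 11.9 and 161 CPM, against 6.66 to 15.6 CPM (median 8.07) in 6 libraries of 6 months. Here 3 of the 5 old males lay within the range of the young ones and 2 far above it. The highest young value was that of replicate 3, which went against its sex label. The other 5 young males held 6.66 to 8.59 CPM, below every old male. The log2 fold change of 2.39 (SE 0.60, adjusted p = 0.0039) rested on 28-month male replicate 15, without which it was 1.10 (edgeR adjusted p = 0.22). By limma-voom with quality weights Gadd45a passed in neither sex, at 2.08 in females (adjusted p = 0.092) and 1.88 in males (adjusted p = 0.059), nor in females with only the compared groups fitted (adjusted p = 0.091).

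Runx1, a transcription factor known for rising steeply in denervated mouse fibres (ENSMUSG00000022952, chromosome 16, 92601466 to 92826149, minus strand), ranged from 8.12 to 27.7 CPM (median 11.2) in 28-month females of batch 1, against 3.49, 3.87, 3.33 and 2.17 CPM in 6-month females. The groups did not overlap, and Runx1 rose by 2.06 on the log2 scale (SE 0.63, adjusted p = 0.016). Without 6-month female replicate 3 or 4 the call was lost, at an adjusted p of up to 0.058, and limma-voom gave 0.051. In males it was at 4.83, 4.58, 6.75, 4.74 and 25.9 CPM at 28 months, against 2.39 to 24.96 CPM (median 3.48) at 6 months. A single library stood out in each male group, replicate 15 among the old and replicate 1 among the young. The log2 fold change of 0.46 (SE 0.54, adjusted p = 0.65) was -0.38 without 28-month male replicate 15 and 1.55, then past the threshold, without 6-month male replicate 1.

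Myog, the bHLH factor myogenin that activates synaptic genes (ENSMUSG00000026459, chromosome 1, 134289989 to 134292548, plus strand), had 4.85 to 20.4 CPM (median 13.5) in 28-month females of batch 1, against 6.88, 11.6, 4.41 and 9.11 CPM in 6-month females. Old males of batch 1 held 6.09, 6.04, 4.65, 3.704 and 17.8 CPM, against 3.37 to 16.01 CPM (median 5.23) in young males. The groups overlapped in both sexes, at log2 fold changes of 0.62 (SE 0.54) in females and 0.15 (SE 0.51) in males, with adjusted p = 0.45 and 0.90. Myod1, the bHLH factor of activated satellite cells and fast fibres (ENSMUSG00000009471, chromosome 7, 46376474 to 46379099, plus strand), was at 0.19 (SE 0.53) and -0.45 (SE 0.50). Satellite cells also express Myod1, and the 7 satellite cell markers summed to 34.5 to 80.9 CPM in 28-month females of batch 1 and 28.5 to 45.5 CPM in 6-month females. In females 1 of the 7, Vcam1, rose and 1, Fgfr4, fell, and in males 0 of the 7 passed the threshold in edgeR or at an unadjusted p under 0.05. Only 2 of the 7 had a positive log2 fold change in females (list median -0.39), against the direction of the sums, and 5 of the 7 in males (list median 0.05). The part of satellite cells in the Myod1 and Myog levels was not tested.

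Of the repressors, Hdac4 (ENSMUSG00000026313, chromosome 1, 91928779 to 92195699, minus strand) averaged 49.2 ± 18.6 CPM in 28-month females of batch 1 (SD, n = 6) and 30.1 ± 4.88 CPM in 6-month females (SD, n = 4). In males the means were 44.6 ± 24.2 CPM at 28 months (SD, n = 5) and 26.7 ± 11.9 CPM at 6 months (SD, n = 6). Groups overlapped in both sexes. The log2 fold changes were 0.71 (SE 0.26, adjusted p = 0.048) and 0.74 (SE 0.24, adjusted p = 0.026), and in each sex the call was lost in 7 of the fits that left out 1 library. Without 28-month male replicate 15 the male value was 0.47. Without the libraries with skin or marrow markers, Hdac4 in females was at 1.16 (adjusted p = 0.0081). Hdac9 (ENSMUSG00000004698, chromosome 12, 34047580 to 34917095, minus strand), the deacetylase known for falling after denervation, was at -0.11 (SE 0.26) in females. In males it rose by 0.68 (SE 0.25, adjusted p = 0.046), a call lost in 8 of 11 fits that left out a library. Dach2 (ENSMUSG00000025592, chromosome X, 113297510 to 113836386, plus strand), the inhibitor of Myog, was at -0.25 (SE 0.24, adjusted p = 0.48) in females and 0.39 (SE 0.22, adjusted p = 0.24) in males.

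Myh3, the embryonic myosin heavy chain of developing and regenerating fibres (ENSMUSG00000020908, chromosome 11, 67078300 to 67102291, plus strand), was at 41.4, 36.7, 95.2, 97.0 and 103 CPM in 28-month males of batch 1. The 6-month males held 5.33 to 36.7 CPM (median 13.8). The lowest old male reached the level of the highest young one, and the other 4 lay above. Myh3 rose by 2.04 on the log2 scale (SE 0.44, adjusted p = 0.0010), a call kept in every fit that left out 1 library. In females it ranged from 35.3 to 77.0 CPM (median 62.9) at 28 months, against 28.4, 32.03, 8.96 and 23.1 CPM at 6 months, with no overlap. The log2 fold change there was 1.36 (SE 0.49, adjusted p = 0.039), and 7 of 10 fits that left out a library lost the call. Without 6-month female replicate 3, which went against its sex label, it was 1.12 (adjusted p = 0.17).

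Ncam1, the neural cell adhesion molecule that denervated fibres display over their whole surface (ENSMUSG00000039542, chromosome 9, 49502136 to 49798925, minus strand), had 6.75 to 20.5 CPM (median 16.9) in 28-month females of batch 1, against 10.6, 6.78, 3.78 and 7.11 CPM in 6-month females. It rose by 1.13 on the log2 scale (SE 0.35, adjusted p = 0.016), and without 6-month female replicate 3, a library against its sex label, the value was 0.94 (adjusted p = 0.11). Old males of batch 1 held 4.63, 8.31, 17.3, 13.1 and 26.01 CPM, against 4.29 to 13.0 CPM (median 8.04) in young males, at 0.75 (SE 0.31, adjusted p = 0.093). Without the libraries against their sex label the male value was 0.91 (adjusted p = 0.021), and without 28-month male replicate 15 it was 0.39 (adjusted p = 0.49). Schwann cells also express Ncam1. The 10 Schwann cell markers summed to 62.9 to 506 CPM in 28-month females of batch 1 and 42.5 to 104 CPM in 6-month females. All 10 had a positive log2 fold change (list median 1.11), with 0 of 10 past the threshold in edgeR and 0 at an unadjusted p under 0.05. In males the sums were 75.1 to 476 CPM at 28 months and 57.4 to 222 CPM at 6 months, and Cdh19 rose. There too all 10 Schwann cell markers had a positive log2 fold change (list median 1.14), 3 of them at an unadjusted edgeR p under 0.05. Their part in the Ncam1 level was not tested. Endothelial markers, 8 genes, also moved with age: 7 of 8 rose in males, with sums of 239 to 438 CPM at 28 months and 83.1 to 181 CPM at 6 months. In females 2 of 8 rose, with sums of 89.1 to 401 CPM at 28 months and 110.6 to 319 CPM at 6 months. Their part in the members' levels was not tested.

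**Figure D1:**
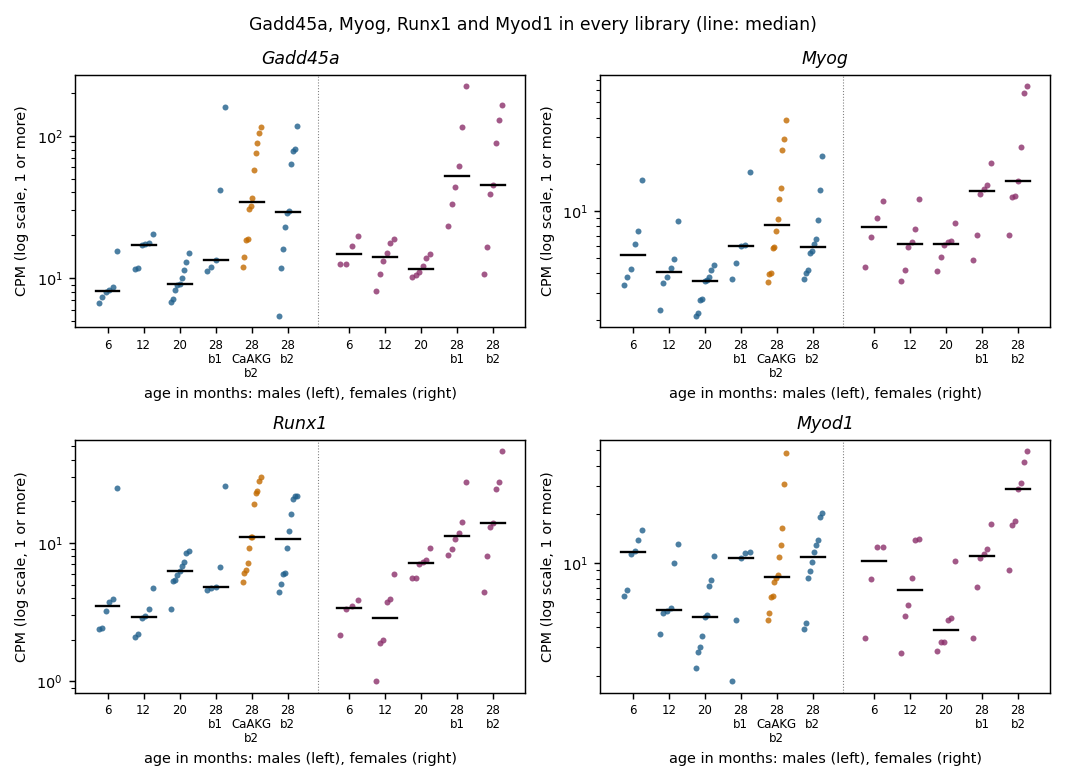
Levels of Gadd45a, Myog, Runx1 and Myod1 (CPM, log scale) in every replicate, by age in months, with males on the left and females on the right of each panel; b1 and b2 are the batches, orange marks CaAKG, lines are group medians, points in a group are ordered by value, and the single 0 (Runx1, 12-month females) is drawn at 1. Gadd45a reached 224 CPM at 28 months, above the highest younger library at 20.4 CPM.

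At 20 months, Myh3, Ncam1, Hdac4 and Dach2 had risen in both sexes and Gadd45a in neither. The median log2 fold change over the 9 members was 0.74 in females and 0.92 in males, against 0.0017 and 0.02 over all genes. In females 4 members rose and 0 fell, where 18.2% of all genes rose and 17.8% fell, and in males 5 rose and 2 fell, where 22.6% of all genes rose and 22% fell. Hdac9 was the additional gene that rose in males, and Myog and Myod1 fell in males. All 5 genes that rose in either sex have transcripts over 5 kb. Genes over 5 kb as a class had a median log2 fold change of 0.76 in females and 0.74 in males, and 58.2% and 64.0% of them rose. Genes under 2 kb had medians of -0.56 and -0.51.

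Myh3 had 62.9 to 116 CPM (median 70.6) in 20-month females, against 28.4, 32.03, 8.96 and 23.1 CPM in 6-month females, and the groups did not overlap. Its log2 fold change was 1.75 (SE 0.49, adjusted p = 0.0030). In males it had 24.9 to 96.7 CPM (median 56.04) at 20 months, against 5.33 to 36.7 CPM (median 13.8) at 6 months, with a change of 1.64 on the log2 scale (SE 0.40, adjusted p = 0.00048). Ncam1 had 20.5 to 29.5 CPM (median 22.9) in 20-month females, against 10.6, 6.78, 3.78 and 7.11 CPM in 6-month females, with no overlap. It rose by 1.74 in females (SE 0.35, adjusted p = 4.5e-05) and by 0.94 in males (SE 0.28, adjusted p = 0.0041).

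Dach2 was the most uniform member at this age. It had 32.7 to 40.3 CPM (median 34.4) in 20-month females and 26.7 to 38.3 CPM (median 33.9) in 20-month males, against 18.1, 22.9, 13.7 and 17.6 CPM in 6-month females and 12.2 to 26.6 CPM (median 16.8) in 6-month males. Neither sex overlapped with its young group, and the log2 fold changes were 0.99 (SE 0.24, adjusted p = 0.00062) in females and 0.92 (SE 0.20, adjusted p = 7.7e-05) in males. Hdac9 in males averaged 22.8 ± 2.745 CPM at 20 months (SD, n = 9) and 8.78 ± 3.27 CPM at 6 months (SD, n = 6), without overlap, at 1.37 (SE 0.22, adjusted p = 3.9e-07). In females Hdac9 was at 0.61 (SE 0.26, adjusted p = 0.066). Hdac4 rose by 0.74 in females (SE 0.26, adjusted p = 0.021), a call lost without 6-month female replicate 2 or 4, and by 1.10 in males (SE 0.22, adjusted p = 1.9e-05).

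None of the 3 members with transcripts under 2 kb rose at 20 months. Myog had 2.13 to 4.55 CPM (median 3.56) in 20-month males, against 3.37 to 16.01 CPM (median 5.23) in 6-month males, and fell by 1.07 on the log2 scale (SE 0.44, adjusted p = 0.041). Without 6-month male replicate 1, the highest young library, Myog was at -0.66 (adjusted p = 0.26), and 5 of 15 fits that left out a library lost the call. Without the libraries against their sex label it was at -1.07 (adjusted p = 0.055). Myod1 had 2.25 to 11.1 CPM (median 4.60) in 20-month males, against 6.29 to 15.9 CPM (median 11.7) in 6-month males, and fell by 1.08 (SE 0.43, adjusted p = 0.035), a call lost in 6 of 15 fits that left out a library. Gadd45a was at -0.35 (SE 0.62) in females and 0.13 (SE 0.52) in males. Runx1, with a transcript of 5.86 kb, was at 1.11 (SE 0.61, adjusted p = 0.16) in females and -0.09 (SE 0.48) in males. The male value was 1.00 without 6-month male replicate 1.

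With offsets for transcript length and GC content, 1 member passed in females of 20 months, Ncam1 at a log2 fold change of 1.04 (adjusted p = 0.013), and 2 in males, Hdac9 at 0.51 (adjusted p = 0.042) and Myh3 at 0.98 (adjusted p = 0.045). Dach2 was then at 0.45 in females and 0.35 in males, neither past the threshold. For 28 against 6 months the same offsets left Gadd45a (2.77) and Runx1 (1.78) past the threshold in females, and Gadd45a (2.65) and Myh3 (1.71) in males. The endothelial markers moved at 20 months as well, with sums of 501 to 661 CPM in females and 518 to 690 CPM in males, against 110.6 to 319 CPM in 6-month females and 83.1 to 181 CPM in 6-month males. Of the 8 markers, 7 rose in each sex, and their part in the members' levels was not tested.

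**Figure D2:**
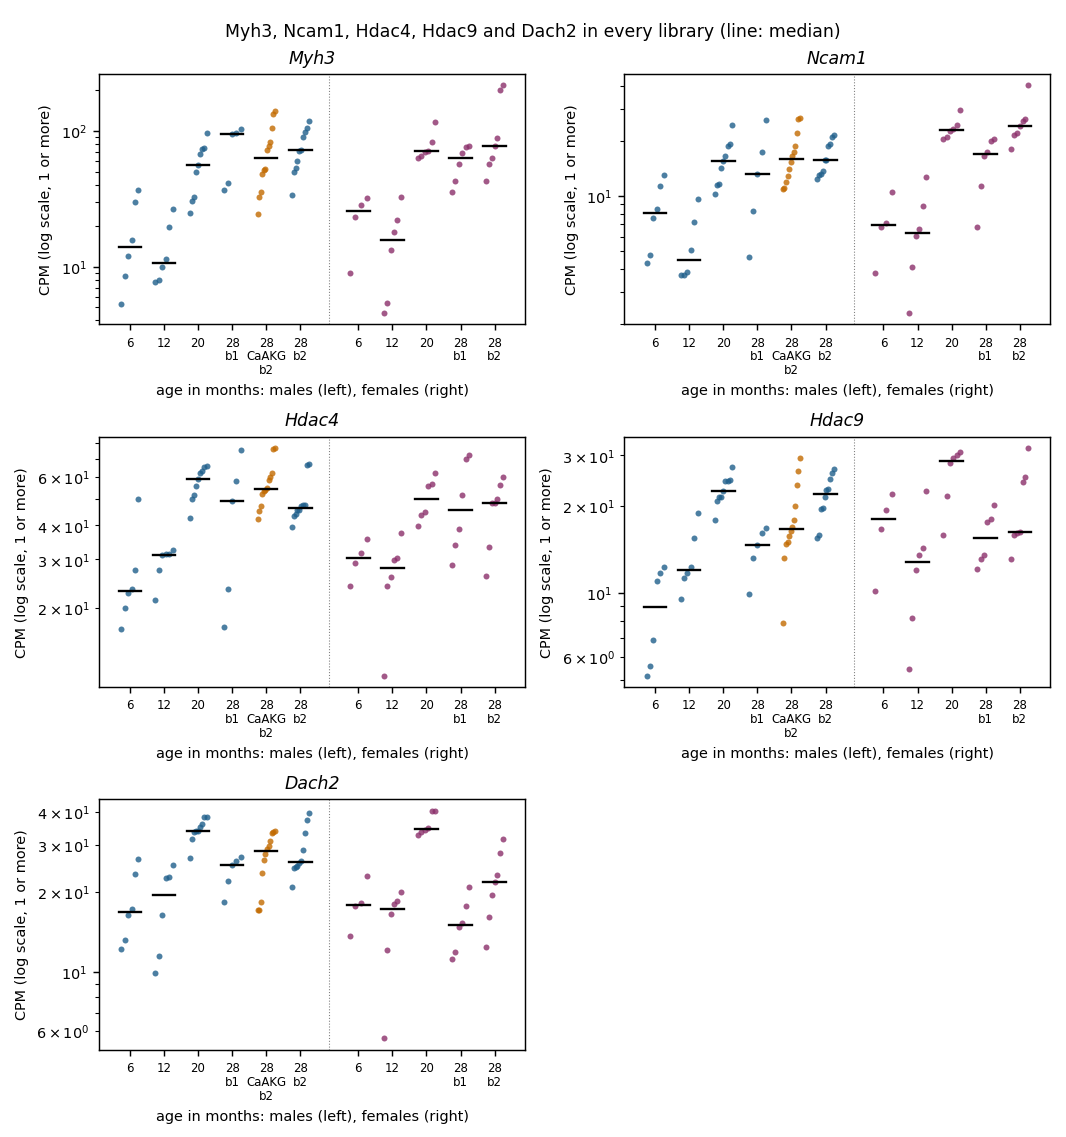
Levels of Myh3, Ncam1, Hdac4, Hdac9 and Dach2 (CPM, log scale) in every replicate, by age in months, with males on the left and females on the right of each panel; b1 and b2 are the batches, orange marks CaAKG, lines are group medians and points in a group are ordered by value. Dach2 lay between 26.7 and 40.3 CPM in every 20-month replicate, with medians of 16.8 and 17.8 CPM in 6-month males and females.

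Between 12 and 6 months 0 members passed in either sex by edgeR, where 0.231% of all genes were called in females and 9.85% in males. At an unadjusted p under 0.05 there were 0 members in females and 2 in males, and DESeq2 also called 0 in both. The largest difference was that of Runx1 in males, with 2.09 to 4.69 CPM (median 2.91) at 12 months, against 2.39 to 24.96 CPM (median 3.48) at 6 months, a difference of -1.17 on the log2 scale (SE 0.54, adjusted p = 0.17). It rested on 6-month male replicate 1, without which it was -0.05.

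**Figure D3:**
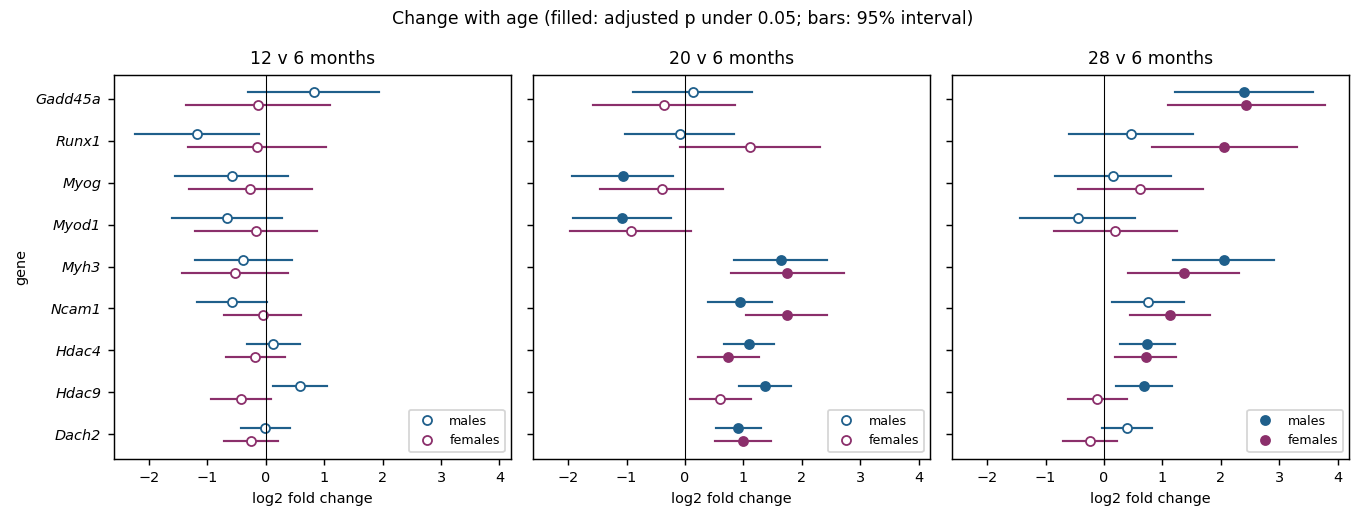
Log2 fold change (x axis) of the 9 genes at 12, 20 and 28 months, each relative to 6 months, in males and females of batch 1; points are edgeR estimates, bars are 95% intervals and filled points passed an adjusted p of 0.05. Gadd45a lay at 2.39 and 2.44 at 28 months in males and females, against 0.13 and -0.35 at 20 months.

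Set against 20 months, Gadd45a rose at 28 months in both sexes. Of the 9 members 1 rose and 2 fell in females, where 17.3% of all genes rose and 12.6% fell, and 1 rose and 1 fell in males, where 8.25% rose and 8.78% fell. Gadd45a had 23.3 to 224 CPM (median 52.4) in 28-month females of batch 1, against 10.1 to 14.7 CPM (median 11.6) in 20-month females, with no overlap, and rose by 2.79 on the log2 scale (SE 0.59, adjusted p = 0.00027). In males it was 2.26 (SE 0.52, adjusted p = 0.0014), and 0.96 (adjusted p = 0.24) without 28-month male replicate 15. Dach2 fell in females, to 11.1 to 20.9 CPM (median 14.9) at 28 months, against 32.7 to 40.3 CPM (median 34.4) at 20 months, by 1.24 on the log2 scale (SE 0.21, adjusted p = 1.3e-05). Hdac9 fell by 0.72 in females (SE 0.23, adjusted p = 0.015) and by 0.69 in males (SE 0.23, adjusted p = 0.029). The male call was lost without 28-month replicate 11 or 15, and the female one without the libraries with skin or marrow markers (-0.61, adjusted p = 0.14). These 2 genes are long, and genes over 5 kb had median log2 fold changes of -0.37 in females and -0.43 in males in the same contrasts. With the length and GC offsets Dach2 in females was at -0.73 (adjusted p = 0.0074). With them Hdac9 passed in neither sex. Endothelial markers moved in the same contrasts, where 6 of 8 fell in females (list median -0.93) and 4 of 8 in males (list median -0.78), and their part was not tested. Of 6 fast-fibre markers 2 rose in females (list median 2.07) and 0 in males (list median 0.61). Of 6 slow-fibre markers 1 fell in females and 4 rose in males, and the part of fibre make-up was not tested either. Dach2 in males was at -0.52, and at -0.52 without the libraries with skin or marrow markers (adjusted p = 0.069 and 0.040). Myog and Myod1 did not pass, at 1.02 (adjusted p = 0.10) and 1.13 (adjusted p = 0.067) in females and 1.22 (adjusted p = 0.054) and 0.62 (adjusted p = 0.41) in males. Without the libraries with skin or marrow markers Myog was at 1.46 in females (adjusted p = 0.044) and 1.23 in males (adjusted p = 0.043), and Myod1 at 1.55 in females (adjusted p = 0.035). Without 28-month male replicate 15, Myog in males was at 0.64 (adjusted p = 0.46).

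The 28-month libraries of both batches together show how far single mice departed. Gadd45a exceeded 20.4 CPM, the highest value in 37 younger replicates, in 28 of 40 replicates of 28 months. These were 6 of 6 females and 2 of 5 males of batch 1, and in batch 2 they were 8 of 12 CaAKG males, 7 of 10 control males and 5 of 7 control females. Myod1 passed its highest younger value (15.9 CPM) in 12 of 40, Myog (16.01 CPM) in 9 of 40 and Runx1 (24.96 CPM) in 6 of 40. Hdac4 (66.1 CPM) did so in 7 of 40 and Myh3 (116 CPM) in 5 of 40. Dach2 did so in 0 of 40, and Hdac9 and Ncam1 in 1 of 40 each. All younger replicates were of batch 1, so age and batch cannot be told apart in the counts from batch 2. Within batch 1, Myod1 passed its highest younger value in 1 of 6 females and 0 of 5 males. Myog and Runx1 each did so in 1 of 6 females and 1 of 5 males. Hdac4 did so in 2 of 6 and 1 of 5, and Myh3 in 0 of 6 and 0 of 5. The coefficient of variation of Gadd45a was between 73.3% and 135% in the 5 groups of 28 months and between 15.4% and 36.2% in the 6 younger groups.

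In some groups 1 mouse was the highest for several members. In 28-month males of batch 1, replicate 15 was the highest for 7 of the 9 genes, with 161 CPM of Gadd45a, 25.9 CPM of Runx1 and 17.8 CPM of Myog. Among 28-month females of batch 2, replicate 1 was the highest for 6 genes, with 165 CPM of Gadd45a, 63.7 CPM of Myog and 217 CPM of Myh3. In 28-month females of batch 1, replicate 11 led 4 genes, with 224 CPM of Gadd45a, 27.7 CPM of Runx1 and 20.4 CPM of Myog. In batch 2 no control male led more than 3 genes and no CaAKG male more than 2. Younger groups also had such libraries, with 12-month male replicate 3 leading 6 genes, and 12-month female replicate 2 and 6-month male replicate 3 leading 5 each. Of the 28-month libraries named here, none went against its sex label or held skin or marrow markers above 100 CPM. Of the younger ones, 12-month male replicate 3 and 6-month male replicate 3 went against their sex label.

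Deviations of the log2 CPM from each group's mean were then compared between members. Over the 40 replicates of 28 months, Runx1 and Gadd45a deviated together (Pearson r = 0.89, Spearman rho = 0.87), as did Myog and Runx1 (r = 0.83, rho = 0.80), Myog and Gadd45a (r = 0.82, rho = 0.81) and Ncam1 and Myh3 (r = 0.76, rho = 0.84). Each p was 1e-05 by permutation within groups, the smallest that 100000 permutations can give, and of 36 pairs 14 passed an adjusted p of 0.05 by both measures. Without the 2 replicates farthest out, the 4 values of r were 0.86, 0.83, 0.83 and 0.79. In batch 1 they were 0.84, 0.66, 0.83 and 0.84 over 11 replicates, and in batch 2 they were 0.91, 0.88, 0.83 and 0.83 over 29 replicates. Taken alone, batch 2 had 9 of 36 pairs past the adjusted threshold by both measures, these 4 among them, and batch 1 had 0. Points share a library, and with the length index of each library removed r was 0.91, 0.86, 0.81 and 0.73.

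Myod1 went with Myog at 28 months (r = 0.67, rho = 0.70) and against Dach2 (r = -0.49, rho = -0.50, adjusted p = 0.0058 and 0.0049 by permutation). Hdac9 passed with no other member, and Myh3 with Ncam1 alone. In the 37 younger replicates 1 of the 36 pairs passed by both measures, Ncam1 with Myh3 (r = 0.73, rho = 0.71), and it did not pass once the 6 younger replicates with sex-label or skin doubts were left out (r = 0.59, adjusted p = 0.13 by permutation). Over all 37, Runx1 and Gadd45a were at r = -0.16 (rho = -0.03), Myog and Runx1 at 0.03 (rho = 0.08) and Myog and Gadd45a at 0.31 (rho = 0.40). The difference between the age classes was not tested, and Gadd45a spread less in the younger replicates. These 37 include 12-month female replicate 1, which had 0 counts of Runx1 and a Runx1 deviation of -4.99. Without the 6 doubted younger replicates Runx1 and Gadd45a were at r = 0.17, Myog and Runx1 at 0.48 (rho = 0.32) and Myog and Gadd45a at 0.41 (rho = 0.46), and none of these passed.

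**Figure D4:**
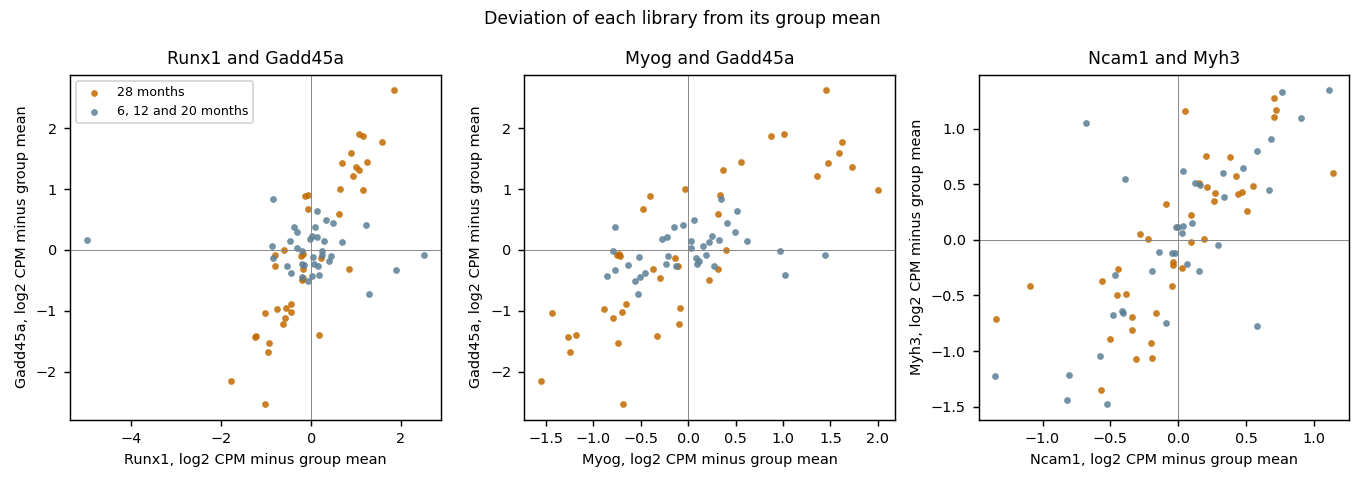
Deviation of each replicate from its group mean (log2 CPM on both axes) for Runx1 and Gadd45a, Myog and Gadd45a, and Ncam1 and Myh3; orange points are 28-month replicates and blue-grey points are younger ones. At 28 months r was 0.89, 0.82 and 0.76, against -0.16, 0.31 and 0.73 in younger replicates. The younger replicates include 12-month female replicate 1, with 0 counts of Runx1 and a Runx1 deviation of -4.99.

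Among 12980 genes with a mean of at least 1 CPM, those most like each member over the 77 replicates were ranked by Spearman correlation of the same deviations. Among the 3 nearest to Myog were Gadd45a (rho = 0.70) and Atp13a3 (0.68), and among the 3 nearest to Gadd45a were Gm34006 (0.71) and Myog (0.70). For Runx1 they were Atp13a3 (0.71), Aif1l (0.68) and Ces2c (0.68). Ncam1 was most like Itga9, an integrin subunit (0.80), Dgkd (0.78) and Myh3 (0.77), and Myh3 was most like Ncam1 (0.77), Itga9 (0.72) and P3h2 (0.71). Among the 3 nearest to Myod1 were Ush1g (0.64) and Gprc5c (0.62). Hdac4 was most like Abcc1 (0.60), Snd1 (0.60) and Sbk1 (0.58), Hdac9 like Dnmt3a (0.76), Tmem131l (0.70) and Itgb6 (0.69), and Dach2 like Pnpla8 (0.76), Synj2bp (0.76) and Rrm2b (0.75). The 3 genes nearest to Dach2 hold no other member.

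CaAKG in 28-month males changed none of the 9 genes past the threshold by edgeR, where 0.0659% of all genes were called. At an unadjusted p under 0.05 there were 0 members, and DESeq2 and limma-voom called 0. Gadd45a had 11.9 to 115 CPM (median 34.2) in CaAKG males, against 5.40 to 118 CPM (median 29.2) in control males, with a log2 fold change of 0.15 (95% interval -0.65 to 0.95). Myog gave the largest difference, with 3.54 to 38.8 CPM (median 8.21) in CaAKG males and 3.68 to 22.8 CPM (median 5.87) in control males, at 0.71 (SE 0.36, adjusted p = 0.75). Groups overlapped for every member. The 95% intervals were narrowest for Dach2, from -0.40 to 0.21, and Hdac4, from -0.13 to 0.54, so changes within those intervals were not excluded. Of 14 neutrophil markers 7 were higher in CaAKG males, where the sums were 249 and 981 CPM in replicates 6 and 7. The median sum was 5.08 CPM in CaAKG males and 3.01 CPM in control males. Without the libraries with skin or marrow markers 0 members passed as well, and 0 of all genes tested.

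Between the sexes at 28 months in batch 2, 1 member was lower in males, where 0.379% of all genes were. Myog had 3.68 to 22.8 CPM (median 5.87) in control males, against 7.03 to 63.7 CPM (median 15.7) in control females. The groups overlapped, and the log2 fold change was -1.78 (SE 0.40, adjusted p = 0.0088), a call lost without female replicate 1 or 4 (-1.43 and adjusted p = 0.076 without replicate 1). Myod1 pointed the same way, with 3.91 to 20.4 CPM (median 10.9) in males and 9.02 to 49.2 CPM (median 28.9) in females, at -1.31 (SE 0.40, adjusted p = 0.079), past the threshold in DESeq2. In batch 1 at 28 months Myog averaged 7.65 ± 5.75 CPM in males (SD, n = 5) and 12.3 ± 5.60 CPM in females (SD, n = 6). The difference between the sexes in the change of 28 against 6 months passed for 0 of 9 members by edgeR and DESeq2, where 0.329% of all genes were called, and 1 member, Hdac9, had an unadjusted p under 0.05.

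Batches were compared at 28 months, the age that both hold. In females, Myod1 rose in batch 2 to 9.02 to 49.2 CPM (median 28.9), against 3.44 to 17.4 CPM (median 11.1) in batch 1, by 1.43 on the log2 scale (SE 0.47, adjusted p = 0.023), and 6.75% of all genes rose in that contrast. Without the libraries with skin or marrow markers, 3 of them batch 1 females, Myod1 was at 1.02 (adjusted p = 0.24), and leaving out female replicate 1, 7, 10 or 12 also ended the call. In males 0 of the 9 passed by edgeR or DESeq2, where 1.02% of all genes were called and 1 member, Hdac9, had an unadjusted p under 0.05. Ncam1 in females was at 0.73 (adjusted p = 0.062), and it passed once the libraries against their sex label were left out (0.73, adjusted p = 0.032). Gadd45a was at -0.24 (SE 0.53) between batches in females and -0.07 (SE 0.52) in males. Of 6 fast-fibre markers 5 were lower in batch 2 in females (list median -2.65) and 0 passed in males, and their part was not tested.

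Genes that act beside the 9 were read from lists. For these genes only the main fit was read, so whether a change rested on a single library was not tested. This holds for 28-month male replicate 15 as well. Their counts stand beside all genes tested, of which 9.91% rose and 9.04% fell at 28 against 6 months in females and 6.76% rose and 9.38% fell in males. Of 13 genes of the neuromuscular synapse, 4 rose and 0 fell at 28 against 6 months in females, and 4 rose and 1 fell in males. In females these were Kcnn3, a calcium-activated potassium channel of denervated muscle, at a log2 fold change of 1.304, the receptor kinase Musk at 0.90, the acetylcholine receptor subunit Chrnb1 at 0.91 and Lrp4, the agrin receptor, at 0.65. In males Kcnn3 rose by 1.56 and Chrng, the fetal receptor subunit that denervated fibres re-express, by 3.52, with 3.15 CPM on average at 28 months and 0.27 CPM at 6 months. Rapsn, the receptor clustering protein, fell in males by 0.64, with 26.3 CPM at 28 months and 40.9 CPM at 6 months and no overlap. The list's median was 0.65 in females and 0.58 in males, against 0.09 and 0.02 over all genes.

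At 20 months, 4 of the 13 rose and 1 fell in females, where 18.2% of all genes rose and 17.8% fell, and 5 rose and 3 fell in males, where 22.6% rose and 22% fell. Musk, Kcnn3 and Lrp4 rose in both sexes, at 1.62, 2.11 and 1.07 in females and 1.08, 2.07 and 1.11 in males, and Rapsn fell in both, at -0.72 and -1.01. Chrng, with an average of 0.28 CPM in 20-month females and 0.30 CPM in 20-month males, did not pass at that age. From 20 to 28 months Chrng rose in both sexes, by 2.38 in females and 3.40 in males.

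Of 8 ubiquitin ligases of muscle atrophy, 4 rose and 0 fell at 28 against 6 months in each sex (all genes: 9.91% rose in females and 6.76% in males), with list medians of 0.50 in females and 0.38 in males. Fbxo32, the ligase atrogin-1, rose by 1.03 in females and 0.67 in males, and Nedd4 by 0.52 and 0.53. Trim63, the ligase MuRF1, rose in females by 0.83, with 216 CPM at 28 months and 121 CPM at 6 months. At 20 months, where 18.2% and 22.6% of all genes rose, 5 rose in females and 6 in males, among them Nedd4 at 0.95 in each and Fbxo21 at 0.74 and 0.90, and 0 fell.

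Of 14 transcriptional partners (other class II deacetylases, Hdac3, Dach1, Mef2 factors and other regulators), 1 rose in females at 28 months, Eya4 at 0.84. In males Dach1, the paralogue of Dach2, rose by 1.61 and Mef2a by 0.37, and Hdac3 fell by 0.28. Dach1 was also the single list gene whose change with age differed between the sexes, by 1.64 on the log2 scale (male minus female, adjusted p = 0.029). At 20 months 5 rose and 1 fell in females (all genes: 18.2% and 17.8%) and 6 rose and 2 fell in males (22.6% and 22%), led by Mef2a at 0.91 and Dach1 at 2.34.

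Of 8 stress genes related to Gadd45a, 1 rose and 2 fell at 28 months in each sex, where 9.91% of all genes rose and 9.04% fell in females and 6.76% rose and 9.38% fell in males. Atf4, a stress-response factor known to induce Gadd45a in mouse muscle, fell by 0.45 in females and 0.69 in males, and its target Ddit3 fell by 0.75 and 0.88. The share that fell went with transcript length, at 17.7% and 17.3% of genes under 2 kb in females and males. Of genes over 5 kb, 1.39% and 1.66% fell. The part of length in the falls of Atf4 and Ddit3 was not tested. Gadd45g, a paralogue, rose in males by 1.15, and Ppargc1a, a coactivator of mitochondrial genes, rose in females by 1.39. Of 9 other genes of immature fibres 0 rose and 1 fell in each sex at 28 months, the fetal actin Actc1 in females (-0.73) and Csrp3 in males (-1.10). An unadjusted p under 0.05 was found for 4 of these 9 in females and 3 in males.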

How the data were processed

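Soleus RNA of 78 mouse libraries was sequenced as paired Illumina reads. Per the submitters' processing notes, the authors used FastQC, STAR 2.7.11b and RSEM 1.3.3 on mm10, and they deposited RSEM expected counts per gene. The sources used here give neither the annotation release nor the strand setting. Of the deposited values 8.99% were not whole (tolerance 1e-06), and they were rounded. The 55 columns not matched to these samples were not used.

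The 2 libraries of 12-month females that share an animal tag were summed, giving 77 replicates in 11 groups. Their counts differed by a chi-square per gene of 334, where the 265 pairs of libraries in 1 group had a median of 92.3, and no pair differed by less than sampling noise (lowest 18.4). The labels do not state that the others are separate animals, so p-values measure the spread between these samples, which may be technical. The filter on low counts was edgeR's filterByExpr, with minimum count 10 and minimum total 15. One edgeR 4.0.16 quasi-likelihood model with TMM factors (R 4.3.3) gave all contrasts, with Benjamini-Hochberg adjustment. CPM used TMM-scaled totals and marker sums used library totals. Length and GC offsets used splines (df 5), with both properties known for 97.5% of genes. Covariation used deviations of log2 CPM (prior count 2) and 100000 permutations within groups. The length index of a library is the mean deviation of genes over 5 kb minus that of genes under 2 kb. Alternatives used DESeq2 1.42.0 and limma 3.58.1. The fits were tested on simulated data.

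Gene positions are GENCODE M21 (GRCm38). The members and lists were chosen with earlier results of these data known. The text names all 9 members, and from the lists genes past the threshold and examples. A few genes that this rule or the ranking by likeness would name are not reported here.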

Additional observations from a re-analysis of the deposited data

Results flagged for a closer look

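Each member was taken in each group of 4 to 10 replicates, which gave 90 sets that share libraries. In 4 of the 90 the highest library was far from the rest by Dixon's criterion on log2(CPM + 0.5). Chance flags about 1 in 20 sets, so 4 of 90 is near the share given by chance. Runx1 was 25.9 CPM in 28-month male replicate 15 of batch 1 against 4.58 to 6.75 CPM in the other 4. Runx1 was 25 CPM in 6-month male replicate 1 against 2.39 to 3.91 CPM in the other 5. Gadd45a was 15.6 CPM in 6-month male replicate 3, one of the libraries against its sex label, against 6.66 to 8.59 CPM in the other 5. Myod1 was 10.3 CPM in 20-month female replicate 5 against 2.86 to 4.56 CPM in the other 5.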

How the results depend on the processing

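Counts of members past the threshold depended on the fit. With length and GC offsets, 2 members passed for 28 against 6 months in females (5 without them) and 2 in males (4 without). For 20 against 6 months 1 passed in females (4 without) and 2 in males (7 without), for 12 against 6 months 1 in males (0 without), for 28 against 20 months 1 in males (2 without) and between batches 2 in females (1 without). Hdac4 at 20 against 6 months in females then changed sign, to -0.16. The cause was not tested. With DESeq2 4 passed for 28 against 20 months in males, 2 between the sexes and 2 between batches in females. With limma-voom and quality weights 1 passed for 28 against 6 months in females, 4 between the sexes, and 0 in females and 1 in males between batches. With only the compared groups fitted, 0 passed for 28 against 6 months in females (of 18218 genes 0 passed, and 3612 had an unadjusted p under 0.05) and 2 in males, 6 and 4 for 28 against 20 months in females and males, 3 between the sexes and 1 between batches in males. With no filter 3 and 2 passed for 28 against 6 months in females and males, and 1 for 28 against 20 months in males. With batches pooled 5 passed for 28 against 20 months in females and 3 between the sexes. Without the libraries against their sex label 3 passed for 28 against 6 months in females and 2 between batches in females. Without those with skin or marrow markers, and without both sets, 4 passed for 28 against 20 months in males and 0 between batches in females. Leaving out 1 replicate gave 1 to 5 members for 28 against 6 months in each sex, 0 to 3 for 28 against 20 months in males, 0 to 2 between the sexes and 0 to 3 between batches in females.

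Replicate numbers were not treated as pairs in the main fit. In no comparison did every same-numbered pair correlate above 0.1, though 3 of 4 did for 20 against 6 months in females (r from 0.09 to 0.35). Pairs of unlike numbers were not compared, so whether the numbers pair the samples was not tested. With the number as a block, 4 members passed in females and 6 in males for 20 against 6 months, 0 for 12 against 6 months and CaAKG, and 1 between the sexes.

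Over all genes, the ranges include the fits that left out 1 replicate. For 28 against 6 months they were 3452 in females, and 0 to 4446 under the alternatives, and 2940 in males, and 1878 to 5376. For 20 against 6 months they were 6562 in females (3060 to 9328) and 8128 in males (5342 to 9607), and for 12 against 6 months 42 (0 to 761) and 1794 (494 to 3652). For 28 against 20 months they were 5452 in females (2724 to 6254) and 3102 in males (497 to 6586). CaAKG gave 12 (0 to 161), the sexes 236 (115 to 1792), the batches 3605 in females (1099 to 4520) and 185 in males (3 to 2952), and the difference of the age change between sexes 60 (0 to 450).

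Over pairs of members at 28 months, 11 of 36 passed by both measures without the doubted libraries and 18 with the length index removed, and in younger replicates 0 and 3. These alternatives, and the split by batch, were chosen after seeing the data. By reads, Myog is the member most limited by depth, with a median count of 228, followed by Runx1 with 281.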
